A study of Mus musculus with 4 samples.

Results

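The genes described here are 10 genes by which mast cells are known: the granule protease genes Tpsab1, Tpsb2, Mcpt4, Cma1 and Cpa3, the histamine-forming enzyme gene Hdc, the receptor gene Kit with its ligand gene Kitl, and the IgE receptor chain genes Fcer1a and Ms4a2. They were looked up by symbol in the deposited table of 15424 genes, and 8 of the 10 are listed there. The list was chosen by the FPKM values of these same tumors, in particular the low Tpsab1 value after Taz knockdown. The differences given for its members therefore describe the 2 columns of the table and test nothing.

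The tumors were raised subcutaneously in nude mice, which lack mature T cells, from transplanted R728T1 cells. The labels give these cells as non-SMCs of an Rb/P53 mouse model and call the tumor small cell lung cancer. One group carried an shRNA against luciferase (spelled shLuciferace in the labels, shLuc below) and the other an shRNA against Taz (shTaz). There are 2 samples in each group, 4 in all. The labels do not give the mouse strain, the age of the mice, how many animals bore the tumors or how many R728T1 clones were used. Both groups share the Rb/P53 background and the nude host, whose own cells are part of the tumor RNA.

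The table holds 1 value per gene and group in FPKM (fragments corrected for transcript length and library total). Without a value per sample there is no replicate error and no test, and the sequencing depth is unknown. Column totals were 501728 FPKM for shLuc and 427921 FPKM for shTaz. Wwtr1, the gene of the TAZ protein, was at 23.4 FPKM in shLuc and 15.1 FPKM in shTaz, or 64.5% of the control value. Of markers known for small cell lung cancer, Neurod1, Chga and Calca were not listed, Ncam1 was at 39.8 FPKM in shLuc and 43.8 FPKM in shTaz, Uchl1 at 10.1 and 1.51 FPKM, and Insm1 at 0.169 and 0.

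Mast cells arise from blood-forming progenitors and mature in tissues such as skin and gut under the influence of KIT ligand, which binds the receptor tyrosine kinase KIT on their surface. Their granules hold serine proteases and carboxypeptidase A3, bound to the proteoglycan serglycin, together with histamine. When antigen crosslinks IgE held by the high-affinity receptor FceRI, the granules are released. Mast cells of mouse skin and other connective tissue are known for tryptases, the chymases encoded by Mcpt4 and Cma1, and Cpa3.

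In the shLuc tumors the tryptase genes stood out from the other members. Tpsab1 was at 17.3 FPKM and Tpsb2 at 14.2 FPKM, above 79.5% and 76.1% of the listed genes. Mcpt4 followed at 3.65 FPKM and Cma1 at 1.14 FPKM, while Kitl, Kit, Cpa3 and Hdc were under 1 FPKM. In the shTaz tumors no member reached 1 FPKM, and Mcpt4, Cma1 and Cpa3 were listed at 0. Over the 5 granule protease genes the FPKM values summed to 36.8 in shLuc and 1.30 in shTaz, or 3.54% of the control sum.

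**Figure D1:**
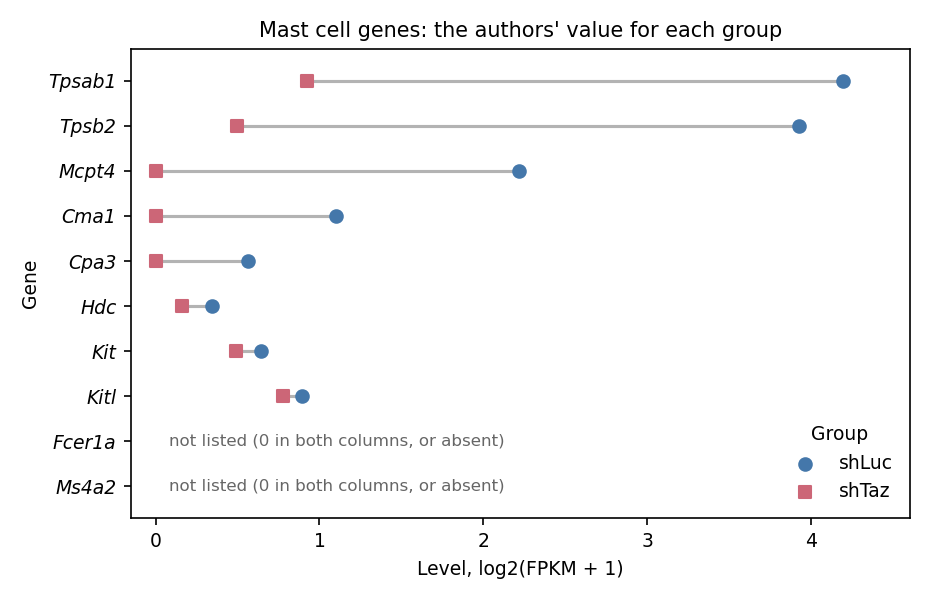
Level of each gene in the authors' shLuc value (circles) and shTaz value (squares), on the scale log2(FPKM + 1), with 1 value per group and no error. The tryptase genes Tpsab1 and Tpsb2 have the longest lines, Mcpt4, Cma1 and Cpa3 reach 0 in shTaz, and Kit and Kitl lie close together.

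Tpsab1 and Tpsb2 encode tryptases, trypsin-like proteases also called mouse mast cell proteases 7 and 6. Tpsab1 (Entrez 100503895) spans chr17:25343245-25345562 on the minus strand of mm10, and Tpsb2 (Entrez 17229) spans chr17:25366305-25369098 on the plus strand. The pair is 20742 bases apart. GENCODE M21 lists Tpsab1 as protein-coding, whereas the RefSeq annotation of the C57BL/6J assembly GRCm38.p6 lists it as a transcribed pseudogene. C57BL/6 mice are known not to make the Tpsab1 protease because of a splice site defect, and the labels do not name the strain of the host.

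Because the genes are close relatives, their coding sequences were compared to show where reads of one could pass for the other. Over 812 aligned coding bases 77.3% were identical, and the longest run that any of their GENCODE transcripts share is 39 bases. No window of 50 bases was common to both. The read length is not given in the sources used here. A pair of aligned stretches of 120 coding bases follows, with capitals at the bases that differ. The stretch with the most differences (43 bases) lies in exon 3 of Tpsab1, at chr17:25344746-25344865, and in exon 4 of Tpsb2, at chr17:25367097-25367216.
Tpsab1: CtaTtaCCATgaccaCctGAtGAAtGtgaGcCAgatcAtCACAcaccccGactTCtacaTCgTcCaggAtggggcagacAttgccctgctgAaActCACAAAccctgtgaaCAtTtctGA
Tpsb2: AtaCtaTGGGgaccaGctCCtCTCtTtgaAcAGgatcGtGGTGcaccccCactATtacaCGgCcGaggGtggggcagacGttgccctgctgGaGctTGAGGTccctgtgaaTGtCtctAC
The stretch with the fewest differences (11 bases) lies in exon 5 of Tpsab1, at chr17:25343428-25343547, and in exon 6 of Tpsb2, at chr17:25367718-25367837.
Tpsab1: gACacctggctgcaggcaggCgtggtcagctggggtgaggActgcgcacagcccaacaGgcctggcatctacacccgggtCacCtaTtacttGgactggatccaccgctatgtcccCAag
Tpsb2: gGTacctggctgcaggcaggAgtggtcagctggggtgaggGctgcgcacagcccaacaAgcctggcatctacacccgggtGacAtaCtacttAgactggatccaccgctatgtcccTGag
How the authors' program divided reads of such stretches is not stated, so the split between the 2 genes is less certain than their sum.

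Tpsab1 was at 17.3 FPKM in shLuc and 0.895 FPKM in shTaz, which is 5.17% of the control value. Tpsb2 was at 14.2 and 0.409 FPKM, or 2.88%. Both were high in the control tumors and under 1 FPKM after knockdown. Summed over the pair, the level was 31.5 FPKM in shLuc and 1.30 FPKM in shTaz, 4.14% of the control level. The ratio of Tpsab1 to Tpsb2 was 1.22 in shLuc and 2.19 in shTaz, where both values are low.

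The difference of a gene is written as log2((shTaz FPKM + 1) / (shLuc FPKM + 1)), which is damped for low genes. It was -3.43 for Tpsb2 and -3.27 for Tpsab1, and 10 and 13 genes lay lower among the 11650 whose 2 values averaged 1 FPKM or more. In the order of 10784 protein-coding genes Tpsb2 was the 4th from the bottom and Tpsab1 the 7th. Below Tpsb2 came Rnaset2a (27.6 and 0.765 FPKM in shLuc and shTaz), a member of a family with near-identical copies, then Clec3b (15.7 and 0.335 FPKM) and Tnn (12.9 and 0.235 FPKM). Above it came Matn4 (11.5 and 0.186 FPKM), Nov (22.0 and 1.27 FPKM), Tpsab1, Sfrp2 (17.9 and 1.05 FPKM) and Dpt (18.4 and 1.16 FPKM). With 2 columns the size of the difference is the only likeness that can be measured between these genes and the tryptases.

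The shTaz values of genes with a like shLuc level are given for scale. The list was chosen by such values and the range of levels was set after values were seen, so these counts test nothing. Of 933 protein-coding genes whose shLuc FPKM lay within 1.2 times that of Tpsb2, 3 were at or below the Tpsb2 value in shTaz, Tpsb2 included, and the median of these genes in shTaz was 14.02 FPKM. Of 893 such genes around Tpsab1, 3 were at or below its value in shTaz, Tpsab1 included, and the median was 16.8 FPKM.

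**Figure D2:**
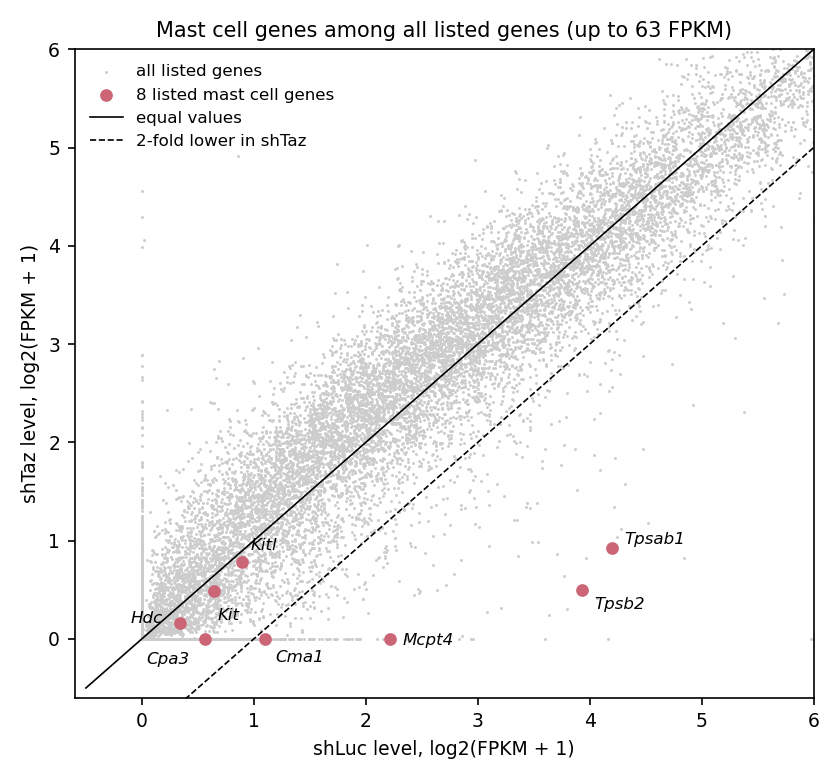
Level of every listed gene in shLuc (horizontal) and shTaz (vertical) on the scale log2(FPKM + 1), gray, with the 8 listed mast cell genes in red; the axes end at 6, and the lines mark equal values and a 2-fold lower shTaz value. Tpsab1 and Tpsb2 lie at the sparse lower right edge, Mcpt4, Cma1 and Cpa3 on the floor at 0, and Kit, Kitl and Hdc near the line of equal values.

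Transcripts rich in G and C were lower in the shTaz column across the whole table, with a Spearman correlation of -0.56 between the difference and GC content across 11055 genes, which share the same 2 columns. The tryptase transcripts are fairly GC-rich, at 54.5% for Tpsab1 and 56.9% for Tpsb2, and so were compared with transcripts of like composition. When the genes were divided into 10 groups by GC content, the group of Tpsab1 (1106 genes) had a median difference of -0.09 and the group of Tpsb2 (1105 genes) one of -0.20. No gene of either group lay lower than the tryptase in it. Since the list was chosen by these values, nothing is read from that place. With the GC trend removed the differences were -3.07 for Tpsab1 and -3.10 for Tpsb2.

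**Figure D3:**
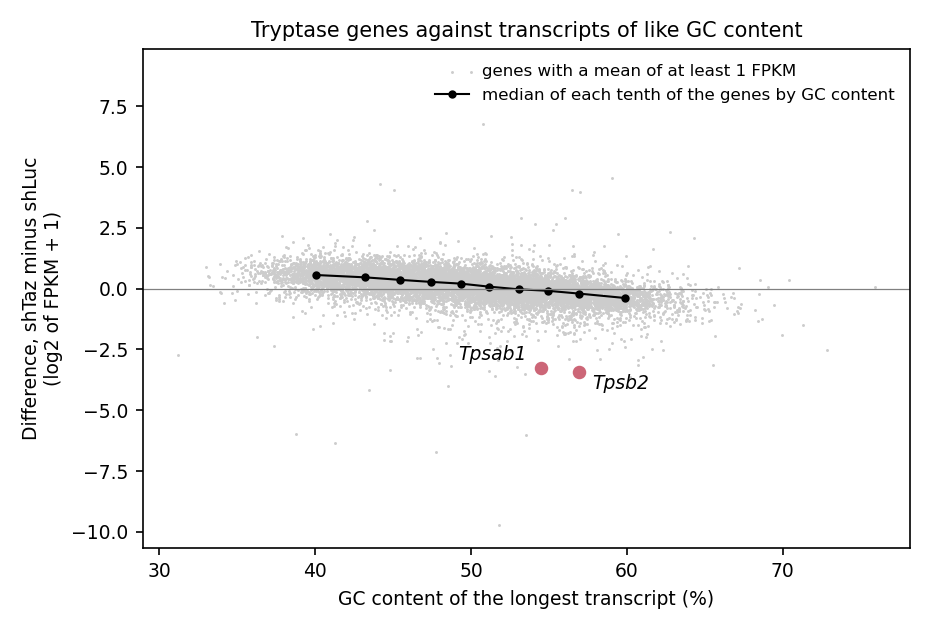
Difference between shTaz and shLuc, on the log2(FPKM + 1) scale, against the GC content of the longest transcript for genes averaging 1 FPKM or more, with black points for the median of each of 10 groups by GC content. The medians slope from 0.56 to -0.38. Tpsab1 and Tpsb2 (red), from a list chosen by such values, lie at -3.27 and -3.43, below the medians at their GC content.

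Mcpt4 and Cma1 encode chymases, serine proteases also called mouse mast cell proteases 4 and 5. Mcpt4 was at 3.65 FPKM in shLuc and listed at 0 in shTaz, and Cma1 was at 1.14 FPKM and 0. Cpa3, the carboxypeptidase stored with them, was at 0.478 FPKM and 0. All 3 genes were thus seen in the shLuc column alone, Cpa3 at a level where many genes are listed at 0 in the other column. Of 424 protein-coding genes within 1.2 times the Cpa3 level in shLuc, 14.2% were at 0 in shTaz, against 4.93% of 669 genes around Cma1 and 0.29% (3 genes, Mcpt4 included) of 1039 around Mcpt4. Over all listed genes 5.99% were at 0 in shTaz.

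A listing at 0 says little about how low these genes were. Had Mcpt4 been at the same percentage of its control value as Tpsab1 or Tpsb2, it would have been at 0.189 or 0.105 FPKM in shTaz. The lowest value above 0 in shTaz among 330 protein-coding genes with transcripts within 1.1 times its length was 0.227 FPKM. For Cma1 the values would have been 0.0591 or 0.0329 FPKM against a lowest listed value of 0.227 FPKM among 323 genes. A drop of the size seen for the tryptases would thus have put both chymases below the range that the table lists at their length. No fold is given for these genes.

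The chymase genes sit in a cluster of related protease genes on chromosome 14, and the table allows a look along it. Cma1 (Entrez 17228) spans chr14:55941451-55944675 and Mcpt4 (Entrez 17227) chr14:56059629-56062313 of mm10, both on the minus strand. From Cma1 to the granzyme gene Gzmb the cluster holds 15 protein-coding genes, of which 7 were listed. All 7 were above 0 in shLuc and 6 were at 0 in shTaz. These 6 include Mcpt4 and Cma1, members of a list chosen by such values. The other listed genes of the cluster were at 0.605 FPKM or less in shLuc. Over all listed genes 5.99% were at 0 in shTaz, and 14.2% of protein-coding genes around the shLuc level of Cpa3 (0.478 FPKM). The members were followed by Mcpt8, a basophil protease gene (0.605 and 0.320 FPKM in shLuc and shTaz), Gzme (0.575 and 0), Gzmd (0.554 and 0), Mcpt1 (0.412 and 0) and Mcpt2 (0.267 and 0). The coding sequences of Mcpt1 and Mcpt2, chymases of mucosal mast cells, were 87.6% and 80.9% identical to that of Mcpt4, with a longest shared run of 46 bases for Mcpt1, so these low values are uncertain. In the tryptase cluster on chromosome 17, from Prss34 to Tpsg1, Tpsab1 and Tpsb2 were the listed genes among 6.

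The promoters of the members without a value in shTaz are shown because the genes were listed at 0 together. RefSeq promoters (GRCm38.p6, 250 bases before the start site to 50 after it) were found for 8 of the 10 members. Capitals mark AGATAA or TGATAA on either strand, the letters that GATA factors such as GATA2 of mast cells are known to bind. The Mcpt4 promoter lies at chr14:56062261-56062560, that of Cpa3 at chr3:20242132-20242431 and that of Cma1 at chr14:55944626-55944925, each on the minus strand.
Mcpt4: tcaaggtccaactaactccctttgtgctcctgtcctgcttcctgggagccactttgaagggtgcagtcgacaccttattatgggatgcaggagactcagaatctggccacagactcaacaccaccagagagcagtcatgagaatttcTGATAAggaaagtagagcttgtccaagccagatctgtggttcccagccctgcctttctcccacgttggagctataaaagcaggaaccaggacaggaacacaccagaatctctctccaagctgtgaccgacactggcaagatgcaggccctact
Cpa3: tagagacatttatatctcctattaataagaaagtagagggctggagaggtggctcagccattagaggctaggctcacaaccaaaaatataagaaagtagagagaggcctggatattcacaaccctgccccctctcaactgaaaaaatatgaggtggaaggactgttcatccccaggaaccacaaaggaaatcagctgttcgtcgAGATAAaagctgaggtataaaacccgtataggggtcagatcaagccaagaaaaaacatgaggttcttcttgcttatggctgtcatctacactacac
Cma1: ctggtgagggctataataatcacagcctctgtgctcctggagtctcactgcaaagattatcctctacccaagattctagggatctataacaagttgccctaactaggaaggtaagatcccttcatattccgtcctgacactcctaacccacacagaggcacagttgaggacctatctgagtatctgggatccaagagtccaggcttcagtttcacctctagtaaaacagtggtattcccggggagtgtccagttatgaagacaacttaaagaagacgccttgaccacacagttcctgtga
The letters occurred once each in the promoters of Mcpt4, Cpa3 and Fcer1a and 3 times in that of Ms4a2. They were not in the windows of Cma1, Hdc, Kit and Kitl. Of 32851 RefSeq promoters 18.6% hold them. The letters TATAAA, the core of a TATA box, were found on either strand in Mcpt4, Cpa3, Kitl and Fcer1a, and in 13.6% of all promoters. CATGTG or CACGTG, sequences that MITF is known to bind, were found on either strand in Fcer1a alone among the 8, and in 20.4% of all promoters. These matches describe the sequences and identify no binding site.

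The enzyme, receptor and ligand genes were low in both groups. Hdc, which encodes histidine decarboxylase, was at 0.270 FPKM in shLuc and 0.118 FPKM in shTaz, 43.6% of the control value. Kit was at 0.561 and 0.405 FPKM, 72.2% of the control value. Kitl, made by stromal and other cells and not a gene of mast cells themselves, was at 0.859 and 0.714 FPKM, 83.1% of the control value. The differences were -0.18 for Hdc, -0.15 for Kit and -0.12 for Kitl, on a scale that leaves little room for change at such levels and so cannot be set beside those of the tryptases. Among protein-coding genes within 1.2 times the same shLuc level, 38.6% of 363 were at or below Hdc in shTaz, 36.7% of 482 at or below Kit and 27.2% of 577 at or below Kitl. All 3 genes thus lay well within the range of genes of their level.

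The ratio of Tpsb2 to Kit FPKM was 25.3 in shLuc and 1.01 in shTaz. Both Kit values and the shTaz value of Tpsb2 were under 1 FPKM. Since the list was also chosen by such values, nothing is read from the change in this ratio. KIT is also known from melanocytes and progenitor cells, and of 6 melanocyte markers only Sox10 and Pmel were listed, at or under 0.290 FPKM. Which cells gave the Kit reads was not tested.

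The IgE receptor is built from the alpha chain (Fcer1a), which binds IgE, the beta chain (Ms4a2), which strengthens its signal, and the gamma chain (Fcer1g), which it shares with other Fc receptors. Fcer1a and Ms4a2 were not listed, which for this table means 0 in both columns or absent. Fcer1g was at 596 and 586 FPKM in shLuc and shTaz, in tumors whose macrophage genes were also abundant.

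Of the 8 listed members 4 were 2-fold or more lower in shTaz on the log2(FPKM + 1) scale (Tpsab1, Tpsb2, Mcpt4 and Cma1) and none was 2-fold higher. Over all 15424 listed genes 2.98% were 2-fold lower and 3.39% 2-fold higher. Since the list was drawn up from these values, nothing is read from the difference between those shares. An average of 1 FPKM was reached by 3 members, Tpsab1, Tpsb2 and Mcpt4, each through its shLuc value alone, and their median of -3.27 therefore only describes what that filter keeps. The median over all 8 listed members was -0.83, against 0.09 over all listed genes. Of the 11650 genes averaging 1 FPKM or more, 7.21% were 2-fold different, and 54.9% of these were higher in shTaz. That split was 38.6% higher once the columns were scaled by their median ratio and 39.2% once their quantiles were matched. Median-ratio scaling shifted the median of all genes by -0.12. Relative to that median Tpsab1 was at -3.39 before and -3.37 after the scaling, and Tpsb2 at -3.55 and -3.51.

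In bulk tumors, fewer cells of a type and less RNA per cell cannot be told apart. Of 16 mast cell markers fixed for these tumors 11 were listed, all 11 above 0 in shLuc and 7 above 0 in shTaz. Their summed level was 70.1 FPKM in shLuc and 56.2 FPKM in shTaz. Serglycin (Srgn), which macrophages also make, was the bulk of it, at 27.4 and 51.9 FPKM. Without it the sums were 42.7 and 4.33 FPKM, of which the 5 granule protease genes, by whose values the list was chosen, made up 36.8 and 1.30 FPKM. The other 5 listed markers, Kit, Hdc, Gata2, Slc18a2 and Mrgprb1, summed to 5.94 and 3.02 FPKM. Gata2 made up most of both sums, at 4.98 and 2.34 FPKM. Kit, Hdc and Mrgprb1 were lower in shTaz, and Slc18a2 was higher, at 0.066 and 0.162 FPKM. Fcer1a, Ms4a2, Mrgprb2, Tpsg1 and Cma2 were not listed, and Mcpt4, Cma1, Cpa3 and Mrgprb1 were at 0 in shTaz. The remaining markers above 0 in shTaz besides Srgn were Gata2, Tpsab1, Tpsb2, Kit, Hdc and Slc18a2.

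Lists of genes that act in and around mast cells, many of them shared with other cells, had medians from -0.92 to 0.57. The lists were written with earlier results of these data known and are given by counts over genes averaging 1 FPKM or more. Of all such genes 3.25% were 2-fold lower and 3.96% 2-fold higher, with a median of 0.12. These counts use the log2(FPKM + 1) scale, on which a low gene can differ more than 2-fold in plain FPKM and not be counted.

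Among 12 genes for granule proteoglycans and the processing of granule proteases none differed 2-fold, and the median was 0.56. Ctsc, a peptidase that activates chymases, was higher at 39.5 FPKM in shTaz, 152% of its shLuc value, and the cathepsin gene Ctss at 270 and 537 FPKM. Serglycin was nearly 2-fold higher, as given above. Of 15 other mast cell granule and surface genes 8 were listed and 3 averaged 1 FPKM or more: Srgn, Cd63 (427 and 467.5 FPKM) and the adenosine receptor gene Adora3 (2.12 and 3.65 FPKM). The serotonin transporter gene Slc6a4 was at 0.344 FPKM in shLuc and 0 in shTaz.

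Of 9 transcription factor genes of mast cell development 8 were listed and none differed 2-fold, with a median of 0.08. Gata2 was the most different, at 4.98 FPKM in shLuc and 2.34 FPKM in shTaz, and Runx1 was at 15.1 and 22.0 FPKM. Mitf was at 1.28 and 1.94 FPKM. Gata1 was not listed.

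Of 13 genes of IgE receptor signaling over the filter 1 was 2-fold higher and none 2-fold lower, with a median of 0.47. It was Btk, a kinase of B cells and myeloid cells, at 2.53 and 6.07 FPKM. On the log2(FPKM + 1) scale Btk lay right at the 2-fold mark. The adaptor gene Lat, named after its value was seen, was under the filter and went the other way, at 1.71 and 0.260 FPKM. Among 11 genes of KIT signaling none differed 2-fold and the median was 0.42, with the phosphatase gene Ptpn11 (6.14 and 12.2 FPKM) and the adaptor gene Gab2 (1.54 and 3.14 FPKM) the most different.

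Of 7 genes of histamine and lipid mediators over the filter, Ptgs2 (cyclooxygenase 2) was 2-fold higher, at 0.726 and 3.23 FPKM in shLuc and shTaz, and the median was 0.51. Hnmt, which inactivates histamine, was listed at 0 in shLuc and at 0.943 FPKM in shTaz. Ltc4s, the leukotriene C4 synthase gene, was at 45.3 and 22.9 FPKM. Among 12 growth and recruiting factor genes and receptors 1 was 2-fold lower and 1 higher, with a median of 0.29. Il3ra, the alpha chain of the interleukin 3 receptor, was at 26.3 and 8.67 FPKM, and Il1rl1, the receptor of interleukin 33, at 12.3 and 27.5 FPKM. Il33 itself was at 27.6 and 37.1 FPKM. Csf2 was listed at 0 in shLuc and at 0.99 FPKM in shTaz, and Il3, Il4, Il6 and Il9 were not listed.

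Of 7 listed genes whose proteins mast cell proteases are known to cut or activate, 6 averaged 1 FPKM or more. Of these 6, 3 were 2-fold lower in shTaz and none 2-fold higher, and the median was -0.92. They were Agt (angiotensinogen, 17.6 and 1.53 FPKM), Mmp3 (stromelysin 1, 10.5 and 1.61 FPKM) and Mmp9 (gelatinase B, 125 and 45.0 FPKM). Fn1 (fibronectin) was at 476 and 679 FPKM, and F2rl1, the tryptase-sensitive receptor PAR2, at 5.65 and 4.10 FPKM. Edn1 (endothelin 1), under the filter, was at 0.753 and 0.884 FPKM.

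**Figure D4:**
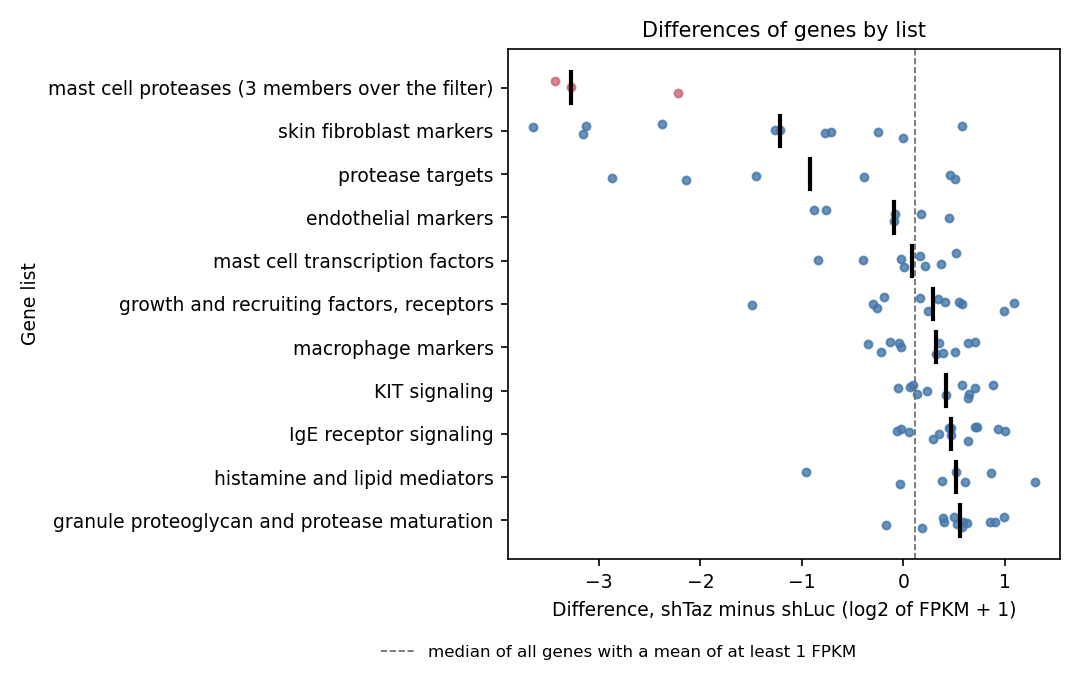
Difference between shTaz and shLuc, on the log2(FPKM + 1) scale, of each gene averaging 1 FPKM or more in 11 gene lists; each point is a gene, the black bar the median of its list, and the dashed line the median of all genes (0.12). Tpsab1 and Tpsb2 lie at -3.27 and -3.43 with Mcpt4, at 0 in shTaz, to their right, skin fibroblast markers have a median of -1.22, and the lists of KIT and IgE receptor signaling lie mostly to the right of the dashed line.

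Most markers of skin fibroblasts, cells of the tissue in which skin mast cells reside, were lower in the same column. Which cells made these RNAs was not tested. Of 11 markers 6 were 2-fold lower and none 2-fold higher, the median was -1.22, and the summed level was 2173 FPKM in shLuc and 1380 FPKM in shTaz. Clec3b, Dpt and Igfbp6 (12.6 and 0.561 FPKM) had differences of -3.65, -3.16 and -3.13, followed by Dcn (decorin, 13.8 and 1.85 FPKM), Col1a2 (334 and 138 FPKM) and Pi16 (7.997 and 2.87 FPKM), while Col3a1 was at 372 and 371 FPKM and Pdgfra at 8.75 and 13.5 FPKM. None of the 11 was at 0. Of 8 endothelial markers 6 passed the filter and none differed 2-fold, with sums of 120 and 81.5 FPKM. Plvap (67.2 and 36.2 FPKM) and Cldn5 (18.2 and 10.3 FPKM) differed most. Of 11 macrophage markers none differed 2-fold, and the sums were 5143 and 5000.5 FPKM. Mrc1 (12.3 and 20.7 FPKM) and Itgam (29.1 and 45.7 FPKM) differed most. Of 6 keratinocyte markers 5 were listed, 3 passed the filter and none of these differed 2-fold, with Sfn at 1.29 and 3.30 FPKM, Krt14 at 5.49 and 3.88 FPKM, and Trp63 listed at 0 in shLuc and at 0.112 FPKM in shTaz. Neutrophil markers went both ways. Of 10 markers 7 were listed (Ly6g, Ltf and Elane were not) and 3 passed the filter, S100a8 and S100a9 only through their shTaz values. S100a8 was listed at 0 in shLuc and at 18.6 FPKM in shTaz, S100a9 was at 0.810 and 29.2 FPKM, and Csf3r at 3.93 and 7.10 FPKM. Camp (0.836 and 0), Mmp8 (0.169 and 0) and Cxcr2 (0.867 and 0.694) were lower in shTaz, and Ngp was at 0 in shLuc and 0.455 FPKM in shTaz. The part of these cell types in the mast cell values was not tested.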

How the data were processed

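RNA from frozen subcutaneous tumors was sequenced, and the authors deposited FPKM values in 1 column per group. The submitters' processing notes name Trim Galore, TopHat and the build mm10. Their versions, the FPKM program, the annotation and the strand setting are not given in the sources used here. The heading of each column is a label that both samples of a group carry, so each was read as the authors' value for that group. Whether it is a mean is not stated.

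The members and gene lists were chosen with earlier results of these data known. All members were named. From each other list, up to 6 genes over the filter that differed 2-fold, or else the 2 that differed most, and genes at 0 in 1 column were named. Any further gene was picked with its values in view. The windows of 1.2 times in level and 1.1 times in length were set after values were seen. Older symbols were matched through Entrez identifiers. Differences were computed on log2(FPKM + 1) from the deposited values, and 2-fold means a difference of 1 on that scale. The longest GENCODE M21 transcript gave length and GC content for 94.9% of 11650 genes. Trends were removed by lowess (span 0.3, statsmodels 0.14.6). Removal of the GC trend was tested on simulated data, which held no length trend, so removal of a length trend was not tested. Coding sequences were aligned with Biopython 1.88. FPKM does not correct for GC content, and its values move when abundant RNAs take up more of the reads.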

Additional observations from a re-analysis of the deposited data

How the results depend on the processing

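Tpsab1 and Tpsb2 were lower in shTaz in all 8 alternatives run for each, at -4.13 to -3.01 and -4.81 to -2.93 on the log2 scale. The ends of these ranges come from the pseudocount of 0.1 and from removal of the GC and length trends, which was chosen after seeing the data. Summing the pair, also chosen later, gave the same value of -3.82 for both genes. The filter of 5 FPKM or more leaves a gene's own difference unchanged. Kit (-0.39 to -0.18), Kitl (-0.24 to -0.18) and Hdc (-0.76 to -0.17) were lower in shTaz in the 3 alternatives that cover them (pseudocount and both scalings). Trends were removed over genes averaging 1 FPKM or more, and so for 3 members. The median over members averaging 1 FPKM or more was -3.27, but -4.81 with a pseudocount of 0.1 and -0.83 with no filter. The count of 2-fold lower members was 4, but 5 with a pseudocount of 0.1. It was 3 with the GC trend, the length trend or both removed, and over members averaging 1 FPKM or more. It was 2 with an average of 5 FPKM or more, or over members above 0 in both columns, settings that leave 2 and 5 members. Over all genes 379 were 2-fold lower and 461 higher. The higher genes were 996 with a pseudocount of 0.1, 219 with an average of 5 FPKM or more (215 lower), 294 with quantile normalization, 253 without the GC trend and 269 without both trends (232 lower). No paired analysis was possible because the deposited table holds 1 column per group, and for the same reason leaving out a replicate could not be run. Depth is unknown, so no counting error can be attached to values under 1 FPKM, where Kit, Kitl, Hdc, Cpa3 and every shTaz value of the members lie.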

Other observations

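Markers of the other cell types that share genes with mast cells were scarce in both groups. Of 7 basophil markers 3 were listed, Mcpt8 (0.605 and 0.320 FPKM in shLuc and shTaz), Ccr3 (0.184 and 0) and the activation marker Cd69 (listed at 0 in shLuc and at 1.01 FPKM in shTaz). Of 6 eosinophil markers 2 were listed, the ribonuclease gene Ear2 at 0.859 FPKM in shLuc and 0 in shTaz, and Siglec5, the older symbol of Siglecf, at 0 in shLuc and above 0 in shTaz. Of 7 T and NK cell markers 6 were listed, with Cd3e, Cd3d, Cd8a and Ncr1 at 0.119 to 0.282 FPKM in shLuc and at 0 in shTaz. Over all listed genes 5.99% were at 0 in shTaz, and 14.2% of protein-coding genes around the higher shLuc level of Cpa3. Klrb1c went the other way, at 0.137 FPKM in shLuc and 0.294 FPKM in shTaz. Cd4 was at 1.82 and 1.15 FPKM.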
